A study of Mus musculus with 9 samples.

Results

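Sirpa, the CD300 receptor genes, Cd200r1 and the myeloid Siglec genes form a set of 10 receptors of dendritic cells and other myeloid cells, and their transcript levels were compared in young and adult spleen. The members were taken by gene symbol and were Sirpa, Cd300a, Cd300e, Cd300lb, Cd300ld, Cd300lf, Cd200r1, Siglece, Siglecg and Cd33. They were 10 of 24054 genes listed, and all 10 were among the 14452 genes tested, which had an average count of at least 1 per library. The study sorted type 2 conventional dendritic cells (cDC2) and cDC2-like cells (DC2) from the spleens of C57BL/6 mice and sequenced their RNA in bulk, in 3 groups of 3 libraries. Every mouse carried Cre recombinase at both copies of Clec9a (Clec9a-Cre/Cre) and a tdTomato reporter at both copies of Rosa26 (Rosa-tdTomato/tdTomato), so that TOMATO (TOM) marks cells whose history includes Clec9a-driven Cre. The groups were TOM+ cDC2 and TOM- DC2 from mice at postnatal day 8 and TOM+ cDC2 from adults, which were 9 weeks old for replicate 1 and 8 weeks old for replicates 2 and 3. All cells passed a gate for live, single, non-autofluorescent MHCII+ CD11c+ CD11b+ cells, and spleens of young mice were pooled for a sort. There was no group of adult TOM- cells, and the label records a Cre history rather than a present state of the cell.

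Most of these receptors restrain the cell that carries them. Inhibitory members hold tyrosine motifs (ITIMs) in the tail that, once phosphorylated by Src-family kinases, bind the phosphatases SHP-1 (Ptpn6), SHP-2 (Ptpn11) and SHIP-1 (Inpp5d), which damp activating signals. SIRPα, encoded by Sirpa, binds CD47 on neighbouring cells and limits their uptake, and it is a standard surface marker of cDC2. Siglecs read sialic acids on the same or on other cells, the CD200 receptor reads CD200, and CD300 receptors bind lipids exposed on dying and activated cells. The CD300 family also holds activating receptors that lack ITIMs and signal through the adaptors DAP12 (Tyrobp) or the Fc receptor γ chain (Fcer1g), so the set is not purely inhibitory: Cd300a and Cd300lf encode the ITIM-bearing members, while Cd300ld, Cd300lb and Cd300e encode receptors of the activating kind.

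The libraries held between 12783252 and 22809401 counts on genes, with a median of 16128082. Both strands shared the reads about equally, at 49.99% to 50.14% on the first, so antisense transcripts could not be told apart. The share of reads at several genomic places was 12.68% to 13.41% in the young libraries and 10.44% to 10.85% in the adult ones, and its part in the differences by age was not tested. The 12 cDC2 markers, among them Flt3, Irf4, Zbtb46 and Itgax, were above 0 in every group. In young TOM+ cDC2 10 of the 12 were lower than in adult cDC2, against 19.5% of all genes. Itgam was higher (edgeR log2 fold change 0.78, adjusted p = 0.00012). Esam, a cDC2 subset marker, was lower in both young groups (-2.21 and -1.67, adjusted p = 7.2e-06 and 5.8e-05). The paper reports a slightly lower share of ESAM-high cells at this age. It proposes that small differences in cDC2 composition could underlie some changes with age, and their part in the receptor differences was not tested. Replicate 1 of both young groups moved together and apart from the others, so results that rest on this pair are also given without it.

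All 10 receptor genes were transcribed in every library, at levels from 6.89 to 862 in TPM, a unit scaled to transcript length and to the library's total. Sirpa was highest in each group and lay at the 98.0 to 98.8 percentile of all genes tested. In young TOM+ cDC2 the next levels were those of Cd300lf, at 190.0 ± 4.65 TPM (SD, n = 3), Cd300a at 161 ± 5.02 TPM and Siglecg at 139 ± 7.76 TPM. Cd300ld and Siglece followed at 58.7 ± 4.91 and 57.8 ± 8.01 TPM, with libraries that overlapped. Cd33 stood at 30.9 ± 2.49 TPM and Cd200r1 at 17.1 ± 2.97 TPM, the latter overlapping Cd300e at 13.3 ± 3.05 TPM. Cd300lb was the lowest of the set, at 7.61 ± 0.999 TPM. Adult cDC2 kept Sirpa at the top but had Cd33 in last place, at 10.1 ± 2.84 TPM, overlapping Cd300lb at 11.8 ± 1.24 TPM. In the adults Cd300lf and Siglecg also overlapped, as did Cd300e and Cd200r1. In young TOM- DC2 the one pair of neighbours whose libraries overlapped was Cd300ld and Siglece.

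**Figure D1:**
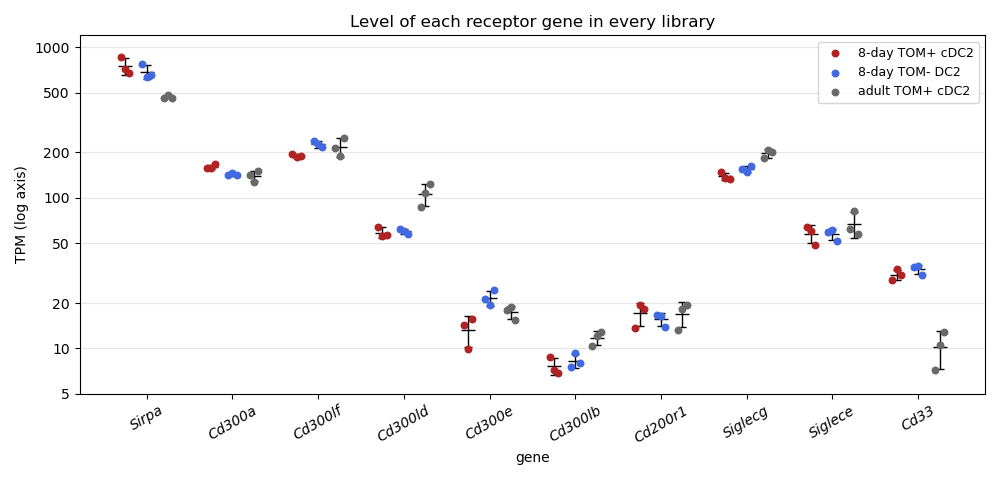
Level of each of the 10 receptor genes in TPM on a log axis, 1 point per library, with the mean and SD of each group of 3 as a bar. Sirpa is the highest in every library, and Cd33 lies between 28.5 and 35.2 TPM in the 6 young libraries and between 7.15 and 12.8 TPM in the 3 adult ones.

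The first question was how the receptors differed between young and adult cDC2. Of the 10 members, 2 were higher in young TOM+ cDC2 (Sirpa, Cd33), 5 were lower (Cd300ld, Cd300lb, Siglecg, Cd300e, Cd300lf) and 3 did not pass edgeR's quasi-likelihood test at a Benjamini-Hochberg adjusted p under 0.05. Over all genes tested, 40.6% passed, 21.0% higher and 19.5% lower, so a large part of the transcriptome differed by age and the 7 of 10 members are read against that share. Cd33 was the member that also changed by more than 1 on the log2 scale, a size that 12.8% of all genes reached. The members' median log2 fold change was -0.33, beside 0.05 over all genes. Young TOM- DC2 were compared with the same adult libraries: 2 members were higher (Sirpa, Cd33), 4 were lower (Cd300ld, Cd300lb, Siglecg, Siglece) and 4 did not pass, against 36.3% of all genes passing, 19.4% higher and 16.9% lower. Here again Cd33 was the member past the larger size, reached by 11.3% of all genes, and the members' median was -0.20 beside 0.07. The normalized counts of the groups did not overlap for 7 members in the first comparison and 5 in the second, where 51.1% and 47.6% of all genes did not overlap. Without replicate 1 of both young groups, 7 and 5 members passed, the second count losing Siglece (adjusted p = 0.071). Both comparisons use the same adult libraries, so their values stand side by side and are not independent. In bulk RNA, fewer cells with a transcript and less of it per cell cannot be told apart.

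Cd33, a Siglec whose mouse form lacks the membrane-proximal ITIM of the human protein, changed most. Its levels were 28.5, 33.5 and 30.7 TPM in young TOM+ cDC2, 34.5, 35.2 and 30.7 TPM in young TOM- DC2, and 7.15, 10.5 and 12.8 TPM in adult cDC2. Every young library stood above every adult one, and the adult libraries were the more spread. The fold in normalized counts was 2.6 for TOM+ cDC2 (log2 fold change 1.38, SE 0.15, edgeR adjusted p = 2.35e-05). For TOM- DC2 it was 2.74 (log2 fold change 1.46, SE 0.15, edgeR adjusted p = 2.13e-05). The ratios of mean TPM were 3.05 and 3.3.

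Sirpa, on chromosome 2 (GRCm38, chr2:129592835-129632228, plus strand), was the other member that was higher in the young. Its level was 862, 720.3 and 676 TPM in young TOM+ cDC2, 775, 638 and 652 TPM in young TOM- DC2, and 463, 485 and 464 TPM in adult cDC2. The 3 adult libraries lay close together and below all 6 young ones, and replicate 1 was the highest of both young groups. The fold against adults in normalized counts was 1.47 in TOM+ cDC2 (log2 fold change 0.56, SE 0.09, edgeR adjusted p = 0.00025). In TOM- DC2 it was 1.31 (log2 fold change 0.39, SE 0.09, edgeR adjusted p = 0.00334). Cd47, the ligand of SIRPα, which the same cells also transcribed, went the other way on the count scale, with 545 ± 27.7 TPM in young TOM+ cDC2, 555 ± 44.5 in young TOM- DC2 and 616 ± 35.8 in adult cDC2 (edgeR log2 fold changes -0.31 and -0.32, adjusted p = 0.0047 and 0.0044). That difference did not pass limma's test on log2(TPM + 1), where adjusted p reached 0.17 and 0.23. Sirpb1a, a paralog of Sirpa that lacks ITIMs and pairs with DAP12, stood at 246 ± 31.0 TPM in young TOM+ cDC2 and at 492 ± 16.7 TPM in adult cDC2 (log2 fold change -1.16, edgeR adjusted p = 2.1e-06). Its estimated counts were 1.68 to 1.79 times its uniquely assigned counts, so its level is uncertain, while no 50-base stretch of Sirpa transcripts was shared with another gene.

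The 5 CD300 members lie within 244 kb of chromosome 11 (GRCm38, chr11:114890041-115133992). Of the 3 genes of the activating kind, Cd300ld, which pairs with the Fc receptor γ chain, had the largest log2 fold change by age: it stood at 64.4, 55.3 and 56.5 TPM in young TOM+ cDC2, 62.1, 59.8 and 57.4 TPM in young TOM- DC2, and 87.2, 108 and 123 TPM in adult cDC2. All 6 young libraries were below all 3 adult ones. In normalized counts adult cDC2 held 1.95 times the level of young TOM+ cDC2 (log2 fold change -0.96, SE 0.10, edgeR adjusted p = 1.66e-05). They held 1.96 times that of young TOM- DC2 (log2 fold change -0.97, SE 0.10, edgeR adjusted p = 1.97e-05). Adult replicate 1 was the lowest of its group, and without it the log2 fold changes were -1.07 and -1.08. Cd300lb, which pairs with DAP12, was scarce and showed the same order, with 8.75, 7.19 and 6.89 TPM, then 7.53, 9.29 and 8.05 TPM, and 10.4, 12.1 and 12.8 TPM in the adults. No young library reached an adult one. In normalized counts the adult level was 1.67 and 1.59 times the young levels (log2 fold changes -0.74 and -0.67, both SE 0.14, edgeR adjusted p = 0.00106 and 0.00244).

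Cd300e, the third gene of the activating kind, was lowest in young TOM+ cDC2. It was listed at 14.3, 9.88 and 15.8 TPM in young TOM+ cDC2, 21.2, 19.3 and 24.4 TPM in young TOM- DC2, and 18.0, 18.8 and 15.4 TPM in adult cDC2. Young TOM+ cDC2 replicate 3 overlapped the adult TPM values, while no TOM+ library reached a TOM- one. Against adults, young TOM+ cDC2 were lower (log2 fold change -0.50, SE 0.17, edgeR adjusted p = 0.0341) and young TOM- DC2 did not pass (0.16, SE 0.17, adjusted p = 0.485). Between the young groups it did not pass without the pairing of libraries given further on (log2 fold change -0.66, SE 0.17, edgeR adjusted p = 0.0891). The TOM+ difference from adults did not pass under limma on log2(TPM + 1) (adjusted p = 0.098). Nor did it pass in edgeR without young TOM+ cDC2 replicate 1 (adjusted p = 0.053) or replicate 2 (0.12), or without adult replicate 1 (0.095) or replicate 2 (0.11).

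Cd300lf and Cd300a, the ITIM-bearing pair, were the most abundant of the family. Cd300lf was at 195, 185 and 189 TPM in young TOM+ cDC2, 239, 226 and 216 TPM in young TOM- DC2, and 213, 189.8 and 250.3 TPM in adult cDC2, the most spread group. It was lower in young TOM+ cDC2 than in adults by a small amount (log2 fold change -0.32, SE 0.09, edgeR adjusted p = 0.0108), which did not pass under limma on log2(TPM + 1) (adjusted p = 0.18). In young TOM- DC2 its log2 fold change against adults was -0.10 (SE 0.09, edgeR adjusted p = 0.397), and it was 0.07 on the TPM scale. Cd300a was at 159, 158 and 167 TPM, then 142, 147 and 141 TPM, and 141, 128 and 150.0 TPM in adults. Its log2 fold changes against adults were 0.08 (SE 0.09, edgeR adjusted p = 0.478) in young TOM+ cDC2 and -0.12 (SE 0.09, adjusted p = 0.305) in young TOM- DC2, and neither passed, the second turning to 0.04 on the TPM scale. The TPM scale moved the median gene by 0.17 and 0.18 in favour of the young in the 2 comparisons, against 0.045 and 0.033 in the counts after TMM scaling, and TPM levels of young and adult cells differ by that offset as well.

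The make-up of the CD300 pool, which does not depend on library scaling, was set out as each gene's share of the family's summed TPM. Cd300ld made up 13.6% ± 0.858 (SD, n = 3) of the pool in young TOM+ cDC2, 13% ± 0.165 in young TOM- DC2 and 21.5% ± 2.65 in adult cDC2. Cd300a was 37.5% ± 1.28 in young TOM+ cDC2, 31.2% ± 1.02 in young TOM- DC2 and 28.4% ± 1.48 in adults. Cd300lf was 44.1% ± 0.585, 49.3% ± 1.27 and 44.1% ± 2.2 in the same order. With 3 libraries against 3, the smallest p an exact two-sided permutation test allows is 0.1, which was reached for Cd300ld and Cd300lb in both comparisons by age, for Cd300a between young TOM+ cDC2 and each other group, and for Cd300lf and Cd300e between young TOM- DC2 and each other group. Added together, a sum chosen after the values were seen, the ITIM-bearing pair held 80.2% to 82.6% of the pool in young TOM+ cDC2, 79.9% to 80.9% in young TOM- DC2 and 69.5% to 75.4% in adult cDC2. The summed level of the family was 431 ± 13 TPM, 460 ± 12.5 TPM and 493 ± 51.2 TPM.

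**Figure D2:**
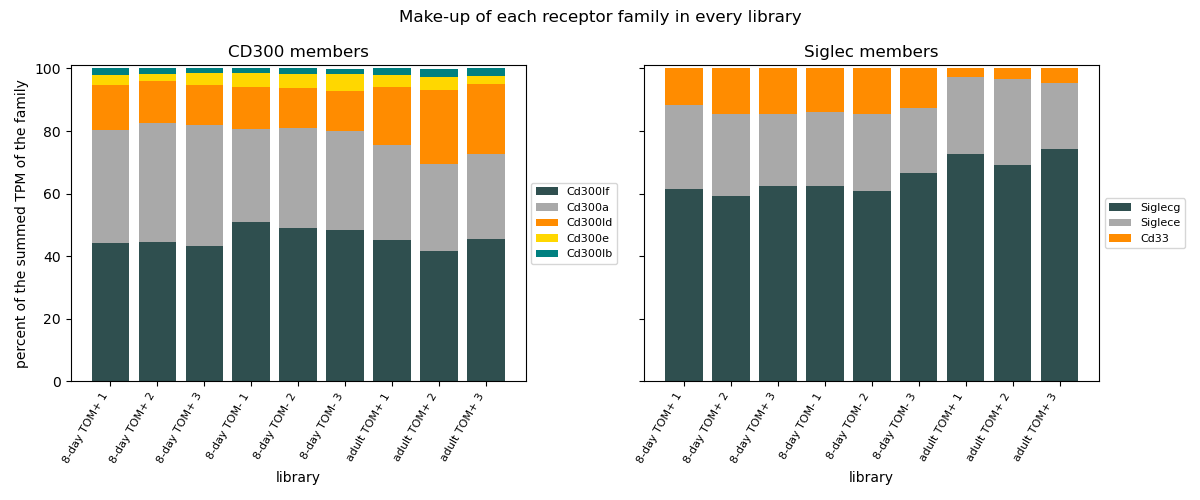
Share of each gene in the summed TPM of the 5 CD300 members (left) and the 3 Siglec members (right), as 1 stacked bar per library that adds up to the whole family. Cd300ld takes a mean of 13.6% and 13% in the young groups and 21.5% in adults, and Cd33 a mean of 13.6% in each young group and 3.68% in adults.

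The sequences before the starts of the 3 members that were lower in both young groups and passed in both, Cd300ld, Cd300lb and Siglecg, are shown so that their proximal regions can be compared. They come from RefSeq (GRCm38.p6), run 5′ to 3′ on the gene's strand, and stop before the first base of any annotated exon. Capitals mark GAGGAAGT, letters of the kind bound by PU.1, a factor of myeloid cells, searched on both strands.
Cd300ld, chr11:114989923-114990136, minus strand: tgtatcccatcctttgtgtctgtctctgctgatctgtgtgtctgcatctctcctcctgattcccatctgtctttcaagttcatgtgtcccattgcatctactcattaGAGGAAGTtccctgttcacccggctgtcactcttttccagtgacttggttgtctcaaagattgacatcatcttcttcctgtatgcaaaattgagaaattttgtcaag
Cd300lb, chr11:114934387-114934621, minus strand: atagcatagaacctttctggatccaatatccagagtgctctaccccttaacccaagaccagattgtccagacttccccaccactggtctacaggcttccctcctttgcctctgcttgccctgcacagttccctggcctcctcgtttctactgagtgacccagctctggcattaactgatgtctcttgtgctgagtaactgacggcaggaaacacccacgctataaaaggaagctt
Siglecg, chr7:43407989-43408203, plus strand: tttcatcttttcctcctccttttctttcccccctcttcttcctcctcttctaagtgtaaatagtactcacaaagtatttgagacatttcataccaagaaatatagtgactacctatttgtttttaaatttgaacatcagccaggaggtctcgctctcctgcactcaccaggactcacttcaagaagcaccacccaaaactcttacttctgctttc
The letters occurred once, in Cd300ld, 143 to 136 bases before the RefSeq start, which lies past the 36 bases of the window that were left off the printed run, and 2.44% of 32851 promoters held them within 250 bases. RefSeq windows were matched for 8 of the 10 members. TTGCNNAA, of the kind bound by C/EBP factors, was found in Cd300a (214 to 207 bases before the RefSeq start) and in 9.56% of all promoters, and the interferon-stimulated response element motif, also searched on both strands, in no member and in 2.98% of all. These are matches of letters and not sites of binding.

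The 3 Siglec members, within 252 kb of chromosome 7 (GRCm38, chr7:43408204-43660161), moved in different directions. Siglecg, an ITIM-bearing Siglec known from B cells and dendritic cells, stood at 147, 136 and 133 TPM in young TOM+ cDC2, 155, 148 and 163 TPM in young TOM- DC2, and 182, 207 and 202 TPM in adult cDC2. The 3 adult libraries were the highest of the 9. In normalized counts the adult level was 1.61 times that of young TOM+ cDC2 (log2 fold change -0.68, SE 0.08, edgeR adjusted p = 4e-05). It was 1.45 times that of young TOM- DC2 (log2 fold change -0.54, SE 0.08, edgeR adjusted p = 0.000287). Because Siglecg is also a B cell gene, the 9 B cell markers are given beside it: their summed level was 61.9 to 72.4 TPM in young TOM+ cDC2, 81.7 to 95.6 TPM in young TOM- DC2 and 58.5 to 75.3 TPM in adults. Among them Ms4a1 stood at 2.46 ± 0.376, 7.8 ± 2.29 and 16.9 ± 4.51 TPM in young TOM+, young TOM- and adult cells, while Pax5 was at 0 in every young TOM- library, and their part in the Siglecg difference was not tested. Siglece, an ITIM-bearing Siglec of myeloid cells, was at 64.3, 60.3 and 48.9 TPM, then 59.2, 60.8 and 51.6 TPM, and 61.8, 82.3 and 57.9 TPM in adults, with overlapping groups. It did not pass in young TOM+ cDC2 (log2 fold change -0.35, SE 0.14, edgeR adjusted p = 0.0644). In young TOM- DC2 it passed narrowly (log2 fold change -0.38, SE 0.14, edgeR adjusted p = 0.0497). The TOM- difference did not pass under limma on log2(TPM + 1) (adjusted p = 0.29). Nor did it pass in edgeR without young TOM+ cDC2 replicate 2 (adjusted p = 0.059), young TOM- DC2 replicate 1 (0.094) or 3 (0.13), or adult replicate 1 (0.07) or 2 (0.22). The TOM+ difference passed in edgeR without adult replicate 3 (adjusted p = 0.022).

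Within the Siglec pool, Cd33 was 13.6% ± 1.53 (SD, n = 3) of the summed TPM in young TOM+ cDC2, 13.6% ± 0.985 in young TOM- DC2 and 3.68% ± 0.939 in adult cDC2. Siglecg made up the larger part, at 61.0% ± 1.68, 63.1% ± 2.98 and 71.9% ± 2.6. For both genes the young and adult shares did not overlap (exact two-sided permutation p = 0.1, the smallest possible). Cd24a, which encodes a sialylated partner of Siglec-G, was at 14.4 ± 4.57 TPM in young TOM+ cDC2 and 11.7 ± 2.43 TPM in adults (log2 fold change 0.13, edgeR adjusted p = 0.71).

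Cd200r1, the inhibitory receptor for CD200, which recruits Dok adaptors rather than SHP phosphatases, showed no called difference. It was at 13.7, 19.3 and 18.2 TPM in young TOM+ cDC2, 16.7, 16.3 and 13.9 TPM in young TOM- DC2, and 13.3, 18.2 and 19.4 TPM in adult cDC2. The 3 groups overlapped, and its log2 fold changes against adults were -0.12 (SE 0.17) and -0.28 (SE 0.17), with edgeR adjusted p = 0.617 and 0.231, the first of which turned to 0.01 on the TPM scale. Cd200, its ligand, differed far more, with 4.04, 5.78 and 3.69 TPM in young TOM+ cDC2, 6.83, 7.82 and 6.0 TPM in young TOM- DC2 and 15.7, 15.4 and 31.9 TPM in adult cDC2, where every adult library was above every young one (log2 fold changes -2.36 and -1.78, edgeR adjusted p = 2.7e-05 and 0.00021). Dok2, an adaptor of the CD200 receptor, was at 0.08, 1.29 and 0.12 TPM in adults, 4.65, 6.88 and 6.48 TPM in young TOM+ cDC2 and 5.96, 8.25 and 7.7 TPM in young TOM- DC2 (log2 fold changes 3.42 and 3.71, edgeR adjusted p = 0.00046 and 0.00029). Adult replicate 2 held most of the adult Dok2 level, and without it the fitted log2 fold changes were 5.68 and 5.96, values that depend on counts near 0.

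The second question was whether young TOM+ cDC2 and young TOM- DC2, which share an age but not the Cre history, differed in these receptors. No member passed edgeR's quasi-likelihood test (lowest adjusted p = 0.089), where 1.60% of all genes did, 0.125% higher and 1.47% lower in TOM+ cells, and 1.18% with a log2 fold change beyond 1. At an unadjusted p under 0.05 there were 3 members, Cd300a, Cd300e and Cd300lf, and 4 had groups that did not overlap, against 16.6% of all genes. With DESeq2 1 member, Cd300e, passed (adjusted p = 0.02). The replicate numbers in the deposited names pair the young libraries, and with that pairing as a block 3 members passed, against 6.57% of all genes (2.23% higher and 4.34% lower): Cd300e was lower in TOM+ cells (log2 fold change -0.66, edgeR adjusted p = 0.0014), Cd300lf was lower (-0.22, adjusted p = 0.018) and Cd300a was higher (0.20, adjusted p = 0.034). That block also joined adult libraries that carry the same numbers. In each of the 3 pairs Cd300e and Cd300lf were lower, and Cd300a higher, in TOM+ than in TOM- cells. With replicate 1 of both groups left out, the blocked test kept Cd300e (adjusted p = 0.0024) and not Cd300lf (0.17) or Cd300a (0.22). In normalized counts TOM- cells held 1.58 times the Cd300e level of TOM+ cells. By TPM, Sirpa was also higher and Siglecg lower in TOM+ cells in each of the 3 pairs, and with the block their log2 fold changes were 0.16 (edgeR adjusted p = 0.053) and -0.14 (adjusted p = 0.18). The other 5 members had no one direction over the pairs, with blocked log2 fold changes from -0.08 for Cd33 (edgeR adjusted p = 0.76) to 0.15 for Cd200r1 (adjusted p = 0.63), and such a p does not show that the levels were alike.

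**Figure D3:**
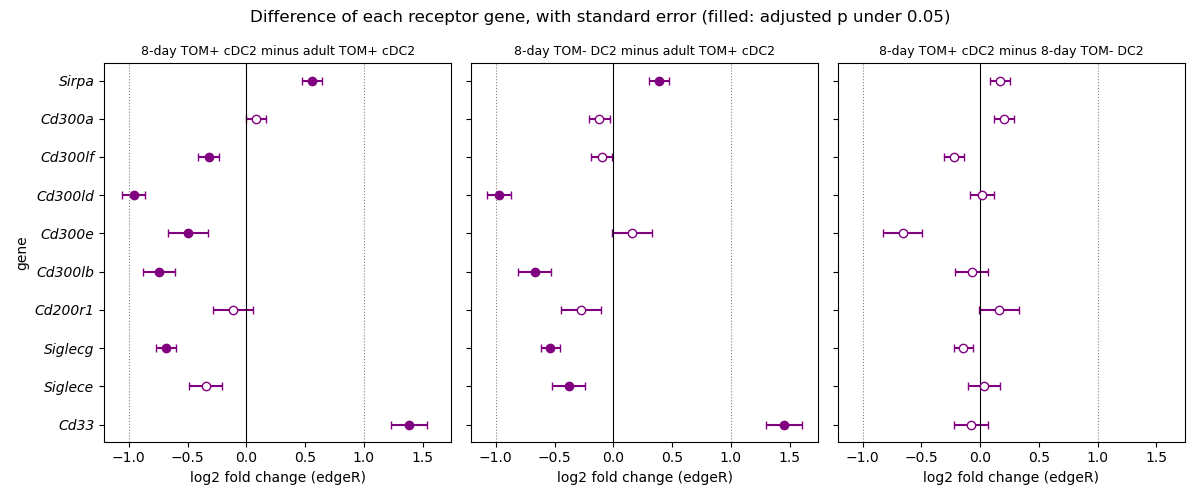
Log2 fold change of each receptor gene in the 3 comparisons, with its standard error, from edgeR without the block. Filled points have an adjusted p under 0.05, and dotted lines mark 1 and -1. Cd33 lies at 1.38 and 1.46 against adults and at -0.08 between the young groups.

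The genes around these receptors were described by lists of their paralogs, ligands and signalling partners. Among 17 genes of inhibitory signalling that were tested, 2 were higher and 9 lower in young TOM+ cDC2 than in adults, with a median log2 fold change of -0.27 beside 0.05 over all genes, and in young TOM- DC2 3 were higher and 9 lower. Over all genes tested, 21.0% were higher and 19.5% lower in young TOM+ cDC2, and 19.4% and 16.9% in young TOM- DC2, shares against which this and the following lists are to be read. Of the lower genes, Fyn, Ptk2b and Skap2 in young TOM+ cDC2 did not pass under limma on either TPM scale. Nor did Ptpn6, Ptk2b and Skap2 in young TOM- DC2. Dok1 did not pass on log2(TPM + 0.1) in young TOM+ cDC2. Some lower genes of the following lists were lost in the same way. Ptpn6, the gene of SHP-1, was at 623 ± 117 TPM in young TOM+ cDC2 and 916 ± 134 TPM in adults (log2 fold change -0.69, edgeR adjusted p = 0.0018). Inpp5d, the gene of SHIP-1, was at 183 ± 12.1 and 183 ± 9.83 TPM (log2 fold change -0.13, adjusted p = 0.33), and Ptpn11, the gene of SHP-2, at 15.2 ± 1.85 and 11.0 ± 2.55 TPM (0.35, adjusted p = 0.079). Fyb, an adaptor that binds SLP-76, was lower in young TOM+ cDC2 (156 ± 20.2 against 300 ± 15.8 TPM, log2 fold change -1.08, edgeR adjusted p = 5.7e-06), and so were the kinases Csk (-0.68, adjusted p = 6.9e-05) and Fgr (-0.70, adjusted p = 3e-05). Of the 4 genes that carry activating signals, Fcer1g and Syk were lower in both young groups and none was higher. Fcer1g stood at 1180 ± 79.4 TPM in young TOM+ cDC2 and 1410 ± 82.5 TPM in adults (log2 fold change -0.38, edgeR adjusted p = 0.014, with up to 0.057 when young TOM+ cDC2 replicate 1 or adult replicate 1 was left out). In young TOM- DC2 Fcer1g passed (edgeR adjusted p = 0.024), but not without TOM- replicate 1 or 3 or adult replicate 1 or 2, at up to 0.088. Tyrobp, the gene of DAP12, was at 2040 ± 131 and 2260 ± 98.6 TPM and did not pass (-0.28, adjusted p = 0.067). Fyn, a Src-family kinase, was the one gene of these lists to pass between the young groups (56.2 ± 3.15 TPM in TOM+ and 44.1 ± 2.19 TPM in TOM- cells, log2 fold change 0.37, edgeR adjusted p = 0.04). It did not pass, with an edgeR adjusted p of up to 0.18, without any one of the 6 young libraries or without adult replicate 2.

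Other ITIM receptors of these cells moved in both directions with age. Of 19 tested, 5 were higher and 10 lower in young TOM+ cDC2, and 4 were higher and 8 lower in young TOM- DC2, with medians of -0.48 and -0.38 on the log2 scale. Over all genes the shares passing were 40.6% and 36.3%, and the medians 0.05 and 0.07. Pilra, a paired immunoglobulin-like receptor with an ITIM, rose from 4.63 ± 0.723 TPM in adults to 63.1 ± 1.58 TPM in young TOM+ cDC2 (log2 fold change 3.67, edgeR adjusted p = 6.6e-09) and 70.4 ± 6.16 TPM in young TOM- DC2 (3.81, adjusted p = 7.2e-09). Cd72, a C-type lectin-like receptor with an ITIM, was at 18.8 ± 5.27, 25.1 ± 6.07 and 141 ± 8.28 TPM in young TOM+, young TOM- and adult cells (log2 fold changes -3.01 and -2.69, edgeR adjusted p = 4.1e-07 and 1e-06). Clec4a4, the DCIR2 lectin of splenic cDC2, was at 108 ± 18.8, 126 ± 11.2 and 259 ± 18.7 TPM (-1.49 and -1.28, adjusted p = 1.1e-06 and 4.3e-06). Fcgr2b, the inhibitory Fc receptor, was higher in young TOM+ cDC2 (137 ± 20.8 against 71.2 ± 17.3 TPM, log2 fold change 0.80, edgeR adjusted p = 0.0036). Pirb and Havcr2 were lower (308 ± 45.1 against 510.0 ± 40.2 TPM and 245 ± 29.6 against 392 ± 17.1 TPM). Pdcd1, near 1 TPM, was lower with an adjusted p of 0.047. That call was lost, at up to 0.14, without any one of the adult libraries, young TOM+ cDC2 replicate 1 or 2, or young TOM- DC2 replicate 2.

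**Figure D4:**
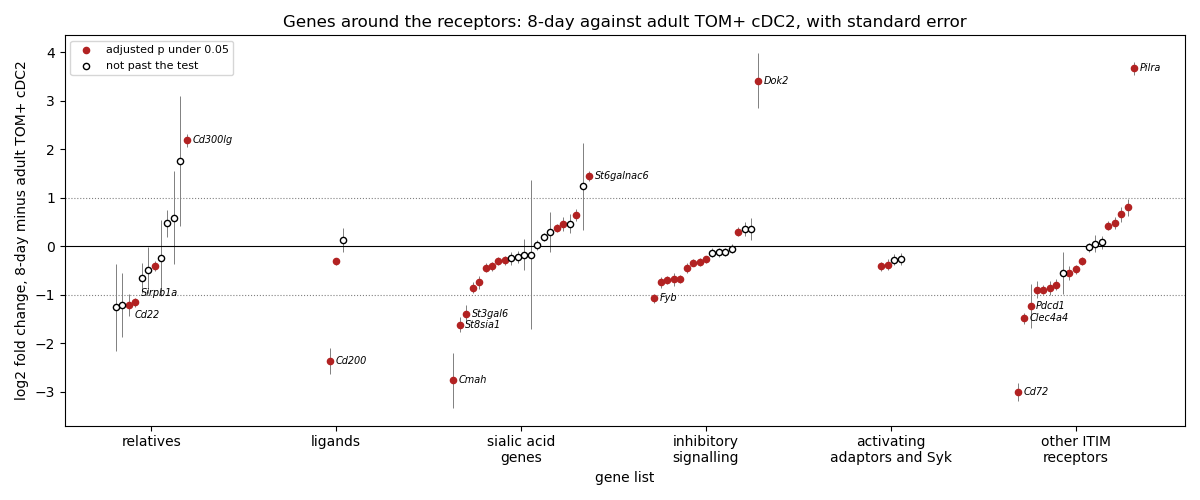
Log2 fold change between young and adult TOM+ cDC2 for the tested genes of 6 lists around the receptors, with standard errors. Red points have an edgeR adjusted p under 0.05, and names mark those that also changed by more than 1. Pilra at 3.67 and Dok2 at 3.42 are the highest, and Cd72 at -3.01 is the lowest.

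Of 12 tested relatives of the members (16 in the files), 1 was higher and 3 were lower in young TOM+ cDC2 than in adults, and 2 were higher and 4 lower in young TOM- DC2. The 4 of 12 in young TOM+ cDC2 is a smaller share than the 40.6% of all genes that passed, and 36.3% passed in young TOM- DC2. Cd300lg, a CD300 relative known from endothelium, was at 15.0 ± 0.972 TPM in young TOM+ cDC2, 11.4 ± 0.332 TPM in young TOM- DC2 and 2.96 ± 0.32 TPM in adults (log2 fold changes 2.18 and 1.77, edgeR adjusted p = 3.3e-07 and 1.9e-06). Cd22, a Siglec best known from B cells, was at 60.4 ± 22.5, 68.7 ± 27.4 and 127 ± 4.83 TPM (-1.21 and -1.07, adjusted p = 0.0013 and 0.0033). Cd72 and Cd22 are both also B cell genes, and of the 8 B cell markers tested 5 were lower and 1 higher in young TOM+ cDC2, and 3 lower and 2 higher in young TOM- DC2, whose part in these differences was not tested. Cd300c, an activating CD300 relative, was at 1.41 ± 0.233 TPM in young TOM- DC2 and 4.56 ± 2.06 TPM in adults (log2 fold change -1.56, edgeR adjusted p = 0.0028), and its level is uncertain because its expected counts were 0.478 to 0.801 times its counts. None of the relatives passed between the young groups.

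Some markers of other cells also differed, by age and between the young groups, and their part in the receptor differences was not tested. Between the young groups, 3 of 8 tested B cell markers were lower in TOM+ cells (Fcer2a, Blk and Ms4a1, log2 fold changes -3.27, -3.13 and -1.59). Irf8 of the cDC1 markers was also lower (-0.77), and Cd163 of the macrophage markers was higher (0.95). Of all genes, 1.60% passed there, 0.125% higher and 1.47% lower. Against adults, 40.6% of all genes tested passed in young TOM+ cDC2 and 36.3% in young TOM- DC2. Summed over 13 monocyte markers, where Nr4a1 at 2080 ± 216 TPM in young TOM+ cDC2 and 3540 ± 501 TPM in adults gave most of the level, the range was 2410 to 2790 TPM in young TOM+ cDC2, 2370 to 2960 TPM in young TOM- DC2 and 3600 to 4590 TPM in adults. By gene, 3 of the 13 were higher in young TOM+ cDC2 (Ccr2, Treml4 and Csf1r, log2 fold changes 1.01, 0.44 and 0.38). The 4 that were lower were Ace, Ms4a4c, Cd14 and Nr4a1 (-3.46, -1.11, -0.895 and -0.892). In young TOM- DC2 1 was higher (Treml4) and 3 lower (Ace, Ms4a4c and Nr4a1). Summed over 12 macrophage markers the range was 376 to 407, 494 to 553 and 266 to 332 TPM. Of these, 4 were higher and 1 lower (Vcam1, log2 fold change -0.74) in young TOM+ cDC2. In young TOM- DC2 8 were higher and 0 lower. Slc40a1, higher in both, was at 5.97 ± 0.801, 10.4 ± 0.287 and 1.92 ± 0.879 TPM. Neutrophil markers summed to 5.59 to 6.57, 5.98 to 44.1 and 8.5 to 11.2 TPM, with S100a8, Camp, Elane, Retnlg and Cxcr2 at 0 in all adult libraries. Of 9 tested, 0 were higher and 1 lower in young TOM+ cDC2, and 3 were higher and 1 lower in young TOM- DC2. Over all 9 libraries the T cell markers summed to 0.99 to 9.23 TPM and those of plasmacytoid cells to 105 to 165 TPM. Of 7 T cell markers tested, 1 was higher and 1 lower in young TOM+ cDC2, and 3 were higher in young TOM- DC2. Of 7 plasmacytoid markers tested, 1 was lower in young TOM+ cDC2, 2 were lower in young TOM- DC2 and none was higher. Markers of cDC1 summed to 339 to 397 TPM. Of 8 tested, 1 was higher (Cadm1, log2 fold changes 1.56 and 1.52) and 3 were lower in each young group than in adults. The 3 were Irf8 (-1.10 and -0.335), Cd8a (-2.47 and -1.53, at 1.76 ± 0.728 TPM in adults) and Batf3 (-0.36 and -0.40). Markers of mast cells and basophils summed to 145 to 334 TPM, where Kit gave most of the level and Mcpt8, Ms4a2, Prss34 and Fcer1a were at 0. Kit was lower in both young groups (-1.02 and -0.645). Erythroid markers summed to 4.13 to 31.6, 20.2 to 509 and 1.39 to 13.5 TPM. Of 5 tested, 0 passed in young TOM+ cDC2 and 2 were higher in young TOM- DC2.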

How the data were processed

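Type 2 dendritic cells sorted from mouse spleen were profiled by bulk RNA sequencing (SMART-Seq v4, unstranded, single-end reads of 50 bases) in 9 libraries of 3 groups. The authors aligned reads to mm10 with STAR and deposited raw counts per gene for each library, of which the unstranded column was used, and the authors also deposited RSEM expected counts, TPM and FPKM values per gene (FPKM was not used here). Tool versions are not given in the sources used here. Library totals were 12783252 to 22809401 gene counts, and 26.14% to 31.63% of reads, which fell on no gene or on several, stayed out of totals and tests.

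Counts were tested with edgeR 4.0.16 (R 4.3.3; TMM scaling, quasi-likelihood F test, average count of at least 1, 14452 genes, all 9 libraries in 1 fit, Benjamini-Hochberg adjustment). Called means adjusted p under 0.05 with a log2 fold change beyond 1. The test was tested on simulated data. Alternatives were RLE size factors, DESeq2 1.42.0, no count filter or an average of at least 10, rounded expected counts, limma 3.58.1 on log2(TPM + 1) and log2(TPM + 0.1), the 2 groups alone, a replicate block, and each library left out. TPM levels are means ± SD over 3 libraries; shares of a family were compared by exact permutation. The paper calls the replicates biological, and spleens of young mice were pooled. It does not give the number of animals behind each library, so p-values measure the spread between libraries.

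The deposited names carry a number shared between libraries. Over 10112 genes, deviations from group means of same-numbered young libraries correlated at 0.746, 0.501 and 0.517, so the numbers pair the young libraries. Young and adult libraries shared 2 numbers, and the main tests by age did not treat them as paired. Same-numbered young and adult libraries correlated at -0.003 to 0.157. The blocked fit held all 9 libraries, so its blocks also joined these young and adult libraries. The authors' processing leaves reads of near-identical genes unassigned in the counts. At most 8.65% of the 50-base windows of a member were shared with another gene, and members' expected counts were 0.823 to 1.07 times their counts.

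The members and lists were chosen with earlier results of these data known. Text names all members, genes called in each list (up to 4 per comparison) with fixed ligands and phosphatases, and, of the 2 genes most alike each member, the closer. Further genes (Csk, Fgr, Fcer1g, Syk, Fcgr2b, Pirb, Havcr2, Fyn, Ptk2b, Skap2, Dok1 and single markers) were named after their values were seen. Positions are from GENCODE M21 (GRCm38), and promoters from RefSeq (GRCm38.p6).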

Additional observations from a re-analysis of the deposited data

How the results depend on the processing

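Of the 10 receptors, 7 passed the test between young TOM+ cDC2 and adults, and 6 to 8 with 1 library left out; between young TOM- DC2 and adults it was 6, and 5 to 6. Under limma on either TPM scale 5 passed in each comparison, 2 higher and 3 lower, without Cd300e and Cd300lf in young TOM+ cDC2 and without Siglece in young TOM- DC2. Receptors called beyond a log2 fold change of 1 were 1 in each. For young TOM+ cDC2 they became 2 with RSEM expected counts, 2 without replicate 1 of both young groups, and 1 to 2 with 1 library left out. For young TOM- DC2 they became 2 under DESeq2, 2 when the count filter was raised to 10, 2 from expected counts, and 1 to 2 with 1 library left out (2 without adult replicate 1, young TOM+ cDC2 replicate 3 or young TOM- DC2 replicate 2). The added gene was Cd300ld. Between the young groups 0 passed, and 0 with any library left out, but 1 with DESeq2 and 1 with no count filter (Cd300e), 3 with the replicate block, and in the blocked test 1, 4 and 4 without replicates 1, 2 and 3 of both groups. The settings that leave out a whole young pair were chosen after seeing the data. The block was not used by age, where 2 numbers were shared; there 9 members passed for TOM+ cDC2 and 6 for TOM- DC2 with it.

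Values that changed sign had all missed the test. On log2(TPM + 1) and log2(TPM + 0.1), Cd200r1 became 0.013 and 0.014 (young TOM+ against adult), Cd300a 0.040 and 0.040 and Cd300lf 0.069 and 0.069 (young TOM- against adult), and Cd300ld -0.027 and -0.027 (TOM+ against TOM-). Cd200r1 became 0.032 with the replicate block and 0.023 without the first young pair. Between the young groups without that pair, with or without the block, Cd300ld was -0.037 and Siglece -0.029, and Cd300lb was 0.061 in the blocked test without the second pair. With 1 library left out, log2 fold changes ran from -0.247 to 0.046 for Cd200r1 (young TOM+ against adult) and, between the young groups, from -0.017 to 0.044 for Cd300ld, -0.027 to 0.129 for Siglece, -0.157 to 0.005 for Cd33 and -0.176 to 0.048 for Cd300lb. Differences in share of a family (percentage points) ran from -1.292 to 0.634 for Cd300lf and -0.692 to 2.430 for Siglece (young TOM+ against adult), -2.786 to 0.337 for Siglece (young TOM- against adult), and -0.147 to 0.068 for Cd300lb and -0.527 to 0.904 for Cd33 (TOM+ against TOM-). The cause was not tested.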

Other observations

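Of 22 tested genes that make, trim or place sialic acids, the sugars that Siglecs read, 4 were higher and 9 lower in young TOM+ cDC2 than in adult cDC2, and 4 and 7 in young TOM- DC2, with medians of -0.20 and -0.24 on the log2 scale, beside 0.05 and 0.07 over all genes. Of all genes tested, 40.6% and 36.3% passed. St6galnac6, a sialyltransferase of gangliosides, was at 46.1 ± 2.44 TPM in young TOM+ cDC2, 47.3 ± 3.59 TPM in young TOM- DC2 and 15.2 ± 2.38 TPM in adults (log2 fold changes 1.45 and 1.46, edgeR adjusted p = 9.2e-07 and 1.2e-06). St8sia1, which makes the ganglioside GD3, was at 7.04 ± 2.04, 9.41 ± 1.41 and 19.5 ± 1.52 TPM (-1.62 and -1.22, adjusted p = 9.5e-06 and 8.5e-05), and St3gal6 at 3.14 ± 0.502, 3.91 ± 0.28 and 7.38 ± 1.4 TPM (-1.40 and -1.06, adjusted p = 7.2e-05 and 0.00058). Cmah, which turns Neu5Ac into Neu5Gc, was under 1 TPM in all groups. None of the 22 passed between the young groups.

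The genes whose log2(TPM + 1) followed each receptor most closely over the 9 libraries, which share 3 groups, were Adsl for Sirpa (r = 0.9946), Cenpt for Cd33 (r = 0.995), Traf1 for Cd300ld (r = 0.9869), Bsdc1 for Siglecg (r = 0.9921), Eno2 for Cd300lb (r = 0.9645) and Acsl3 for Cd300a (r = 0.9785). The closest were less alike for Cd300lf (BC005561, r = 0.9495), Cd300e (Dcstamp, r = 0.924), Siglece (Grcc10, r = 0.9209) and Cd200r1 (B4galt3, r = 0.7775). Among the receptors, Cd300lb and Cd300ld followed each other (r = 0.941), as did Cd300ld and Siglecg (r = 0.929), while Cd300ld and Cd33 ran opposite (r = -0.851). These are descriptions over 9 libraries in 3 groups.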
